A study of Mus musculus with 672 samples.

Results

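Neurog3 and 9 genes named with it as an early cascade were followed here across single cells of the embryonic mouse pancreas. They are Neurod1, Neurod2, Fev, Btbd17, Cbfa2t3, Amotl2, Gadd45a, Rcor2 and Runx1t1. The genes were taken from a list of names and found by their Ensembl identifiers, and all 10 were present among the 46078 genes of the count tables. The cells came from C57BL/6 embryos, for which the labels give no transgene, allele or treatment: 4 plates of embryonic age E13.25, numbered 1 to 4, and 3 plates of E15.25, called tip 1, tip 2 and trunk 2 after their region and bud. Cells were stained with antibodies and sorted singly into 96-well plates, with antibodies and gates not given, and sequenced by a full-length protocol on an Illumina instrument. Plate 4 carries the title Mouse_2 and plates 1 to 3 the title Mouse, and what that number counts is not stated. The plate was the replicate, and since the labels do not say which plates hold separate embryos, p-values measure the spread between plates only, which may be technical. Tip 2 and trunk 2 share bud 2, every E15.25 plate is labelled with a region and no E13.25 plate is, and the deposited protocol names the E13.25 stage for both ages, so age cannot be told apart from region or dissection.

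Neurog3 is a basic helix-loop-helix transcription factor that is switched on briefly in progenitors of the trunk epithelium and is required for the endocrine cells of the islets. It acts with E-protein partners on E-box sequences and turns on further transcription factors, among them its relatives Neurod1 and Neurod2, while Notch signalling through Hes1 holds it down in neighbouring cells. Fev is an ETS-family transcription factor of endocrine precursors and serotonergic neurons. Cbfa2t3 and Runx1t1 are corepressors of the ETO family, and Rcor2 is a corepressor that works with the histone demethylase Kdm1a. Gadd45a is a stress and growth-arrest gene, Amotl2 encodes a scaffold protein of cell junctions that binds the Hippo effector Yap, and Btbd17 encodes a BTB-domain protein.

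All 10 are protein-coding genes in the GENCODE annotation of mm10, and reads were counted per whole gene, so exons, introns and UTRs are not resolved. Neurog3 lies at chr10:62133090-62134763 on the plus strand. Neurod1 lies at chr2:79452521-79456751, Neurod2 at chr11:98325415-98329648, Fev at chr1:74881509-74885419, Btbd17 at chr11:114791217-114795945, Cbfa2t3 at chr8:122625141-122699109 and Gadd45a at chr6:67035096-67037457, all on the minus strand. Amotl2 lies at chr9:102716672-102733418, Rcor2 at chr19:7267325-7275225 and Runx1t1 at chr4:13743436-13893649, all on the plus strand. The bases just upstream of the start sites are shown for the 3 basic helix-loop-helix genes, because these carry the order described below, and for Cbfa2t3, the member with the most E-boxes. They are printed 5′ to 3′ on the gene's strand from the RefSeq promoter table (GRCm38.p6), up to the start of the GENCODE gene, with each E-box (CANNTG) in capitals. The windows are chr10:62132840-62133089 for Neurog3, chr2:79456752-79456886 for Neurod1, chr11:98329649-98329895 for Neurod2 and chr8:122699110-122699359 for Cbfa2t3.
Neurog3: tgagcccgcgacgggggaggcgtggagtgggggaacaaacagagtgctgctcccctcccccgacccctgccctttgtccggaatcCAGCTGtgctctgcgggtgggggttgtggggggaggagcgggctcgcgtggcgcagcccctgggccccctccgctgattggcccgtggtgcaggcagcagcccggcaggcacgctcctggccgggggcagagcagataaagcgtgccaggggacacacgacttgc
Neurod1: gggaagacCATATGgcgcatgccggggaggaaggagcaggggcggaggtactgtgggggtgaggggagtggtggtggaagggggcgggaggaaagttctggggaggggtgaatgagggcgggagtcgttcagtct
Neurod2: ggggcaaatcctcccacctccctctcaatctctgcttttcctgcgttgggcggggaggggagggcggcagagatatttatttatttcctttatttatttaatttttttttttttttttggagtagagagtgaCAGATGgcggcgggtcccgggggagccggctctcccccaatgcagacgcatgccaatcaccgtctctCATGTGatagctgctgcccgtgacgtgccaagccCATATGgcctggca
Cbfa2t3: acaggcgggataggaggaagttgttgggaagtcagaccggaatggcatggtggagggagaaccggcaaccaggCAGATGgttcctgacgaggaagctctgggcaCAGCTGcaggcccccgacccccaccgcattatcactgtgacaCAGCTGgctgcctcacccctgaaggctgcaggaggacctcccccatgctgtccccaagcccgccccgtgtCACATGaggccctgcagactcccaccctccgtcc
Neurod2 held 3 E-boxes and Cbfa2t3 4 in the window shown, and each had 1 of the form CAGATG. A second Cbfa2t3 window (chr8:122678176-122678425) held 1 E-box and no CAGATG. Of all promoter windows, 12.2% held 3 or more E-boxes and 3.84% held 4 or more. The table matched 9 of the 10 genes with 10 windows of 250 bases (Runx1t1 had no entry), and 7 of the 10 windows held an E-box, against 66.2% of all 32851 promoter windows of that length. CAGATG or its reverse complement CATCTG, which are E-boxes themselves, occurred in 2 of the 10 windows and in 14.4% of all windows. The pattern CANNTG reads the same on both strands. A match describes the letters only.

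Of 672 wells, 601 passed the filters, with 80 to 89 cells a plate, 95215056 to 157638042 reads on genes a plate, and a median of 8171.5 to 9313 genes with a read. Levels are given as CPM, the reads of a gene per 1000000 reads on genes, and a gene was counted as present in a cell at 10 CPM or more. Epcam, a surface protein of epithelia, reached that level in 417 cells, 177 at E13.25 and 240 at E15.25. All 7 markers of pancreatic epithelium were at 10 CPM or more in their summed counts. Of these cells 115 also held Col3a1, a collagen of mesenchyme, at 100 CPM or more, 17 at E13.25 and 98 at E15.25, and 56 of the 69 cells with Epcam between 10 and 50 CPM did so. Erythroid markers summed to between 17.5 and 36293 CPM in the Epcam-positive cells of a plate. The background of each gene was read in 161 mesenchyme cells (Epcam under 10 CPM, Col3a1 at 100 CPM or more). Of these, 145 were of E13.25 and only 16 of E15.25. The median share of unaligned reads was 27.7% to 32.5% in E13.25 plates 1 to 3, 47.2% in plate 4 and 45.3% to 50.1% at E15.25, so plate 4, the one titled Mouse_2, is the only E13.25 plate that resembled the E15.25 plates in this measure.

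Neurog3 was present in 104 of the 417 Epcam-positive cells and Neurod1 in 67, and 41 cells held both. Neurog3 spanned a wide range among its cells, from 10.1 to 14416 CPM with a median of 250.4 CPM. At E13.25 the median over 60 cells was 523 CPM, and 25 cells were at 1000 CPM or more. At E15.25 the median over 44 cells was 40.5 CPM, 11 cells were at 1000 CPM or more and 24 lay between 10 and 50 CPM. Neurod1 ranged from 10.58 to 2907 CPM in its cells, with a median of 341 CPM. In the plot of Neurog3 against Neurod1, cells with Neurog3 between 50 and 1000 CPM lay mostly along the bottom, without Neurod1, and cells with Neurod1 at 200 CPM or more were spread over the whole range of Neurog3.

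**Figure D1:**
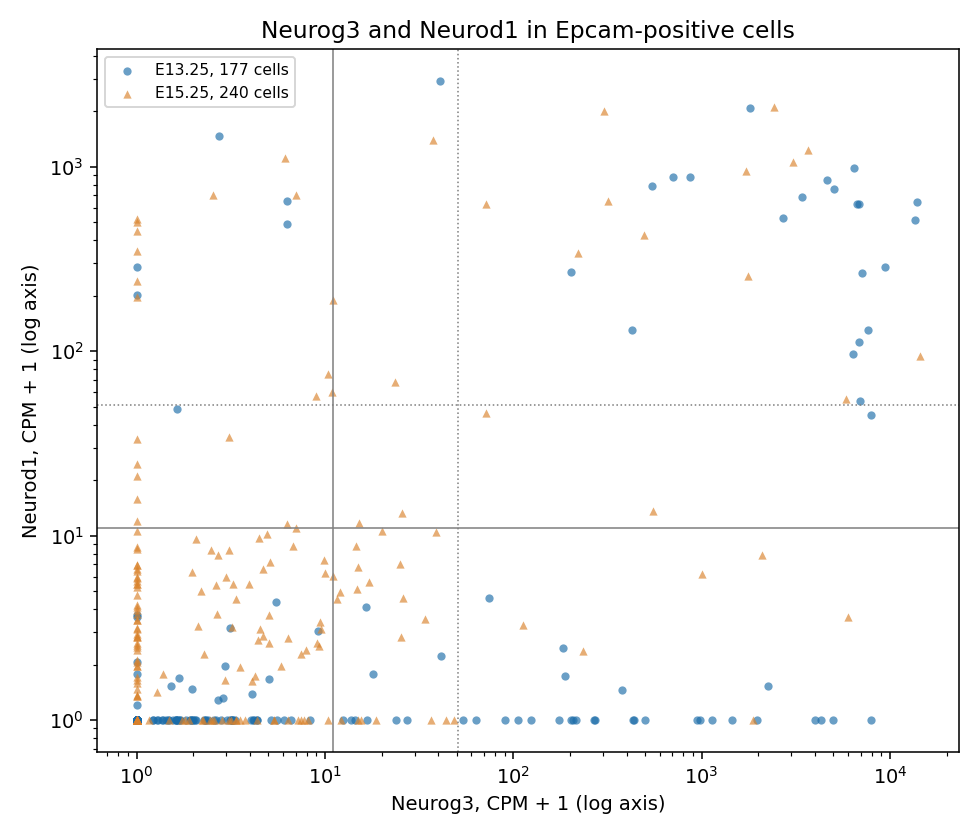
Neurog3 (x axis) and Neurod1 (y axis) in CPM + 1, both on log axes, in the 177 E13.25 (circles) and 240 E15.25 (triangles) Epcam-positive cells. Solid grey lines mark 10 CPM and dotted lines 50 CPM; 41 cells lie at or above 10 CPM for both genes, 63 for Neurog3 alone and 26 for Neurod1 alone.

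Outside the epithelium both genes were close to absent. Neurog3 reached 10 CPM in 5 of the 161 mesenchyme cells, at 10.5 to 20.4 CPM, and none reached 50 CPM. Neurod1 reached 10 CPM in 1 of them, and Neurod2, Fev and Btbd17 in 0 of 161, which allows a share of up to 1.86%. Intervals and limits here and below pool cells over plates and ages and cover counting error only. Cells of 1 plate are not independent replicates, and reads without molecular identifiers are not independent molecules. Low Neurog3 values in epithelial cells overlapped that background, which for E15.25 rested on 16 cells, 1 of them with Neurog3. Of the 29 Epcam-positive cells with Neurog3 between 10 and 50 CPM and no Neurod1, 20 were of E15.25 and 10 of those 20 held Col3a1 at 100 CPM or more. Of the 22 cells with Neurog3 between 50 and 1000 CPM and no Neurod1, 20 were of E13.25 and none held Col3a1 at 100 CPM or more. Among cells with neither gene, 66 of 176 at E15.25 and 16 of 111 at E13.25 held it at that level, so age and Neurog3 level are mixed in this contrast. The part of carried-over RNA or reads in the low values was not tested. Cbfa2t3, Gadd45a, Rcor2, Amotl2 and Runx1t1 were not specific to epithelium at 10 CPM: the mesenchyme cells of the E13.25 plates had them in mean shares of 14.5%, 20.2%, 17.9%, 85.4% and 95.4%.

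The Epcam-positive cells were then ordered by their Neurog3 and Neurod1 levels in 8 steps, with edges set after the cell values had been seen. The order is a description of levels and carries no measure of time. The 10 genes did not appear together. Amotl2 and Rcor2 were frequent in cells with moderate Neurog3, nearly all of them of E13.25. Btbd17, Gadd45a and Cbfa2t3 were present in most cells with at least 1000 CPM of Neurog3, and Neurod2 in most of those that held high Neurog3 together with Neurod1. Fev was found almost only in cells with 200 CPM or more of Neurod1 and in those with Neurod1 and less Neurog3. Runx1t1 was most frequent in the same cells, and was also present in 34.5% of the cells with neither gene and 37.9% of those with Neurog3 at 10 to 50 CPM alone.

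**Figure D2:**
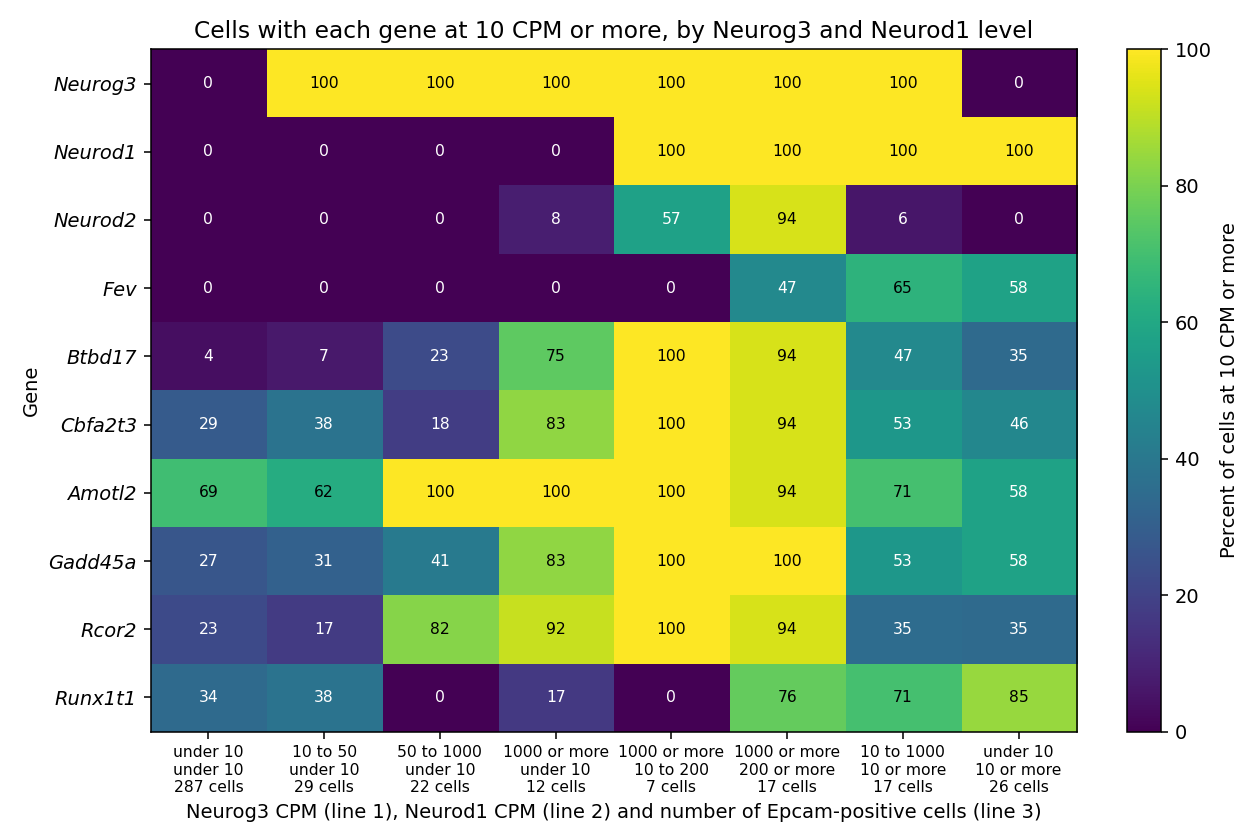
Percent of Epcam-positive cells with each gene (rows) at 10 CPM or more, by 8 steps of Neurog3 and Neurod1 CPM (columns, with the number of cells). Neurod2 is filled almost only at 1000 CPM or more of Neurog3 with Neurod1 (57 and 94 percent). Fev is filled in the column with Neurod1 at 200 CPM or more (47 percent) and in the last 2, with Neurod1 at 10 CPM or more (65 and 58 percent). Runx1t1 is highest in the same columns but also present in the first 2 columns (34 and 38 percent). Neurog3 and Neurod1 define the columns.

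Amotl2 was present in 199 of the 287 cells with neither gene (69.3%) and in all 22 cells with Neurog3 at 50 to 1000 CPM and no Neurod1, where its median was 364 CPM against 59.3 CPM. Its median was 917 CPM in the 12 cells with Neurog3 at 1000 CPM or more and no Neurod1. Also at 1000 CPM or more of Neurog3, it was 1855 CPM with Neurod1 at 10 to 200 CPM (7 cells). With Neurod1 at 200 CPM or more in that range of Neurog3 it was 804.6 CPM (17 cells). It was 23.4 CPM in the 17 cells with both genes but Neurog3 under 1000 CPM, and 34.6 CPM in the 26 cells with Neurod1 alone. Amotl2 was thus highest in the steps with 1000 CPM or more of Neurog3. The cells with Neurod1 alone came mostly from E15.25, where their median was 38.8 CPM (20 cells) against 40.6 CPM in cells with neither gene (176 cells). At E13.25 it was 2.32 CPM (6 cells) against 122 CPM (111 cells).

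Rcor2 was present in 65 of 287 cells with neither gene (22.6%) and in 5 of 29 with Neurog3 at 10 to 50 CPM. It was present in 18 of 22 cells at 50 to 1000 CPM of Neurog3 (81.8%, exact binomial 95% interval over pooled cells 59.7% to 94.8%), with a median of 75.5 CPM. Its median then stayed between 119 and 140.3 CPM over the 3 steps with Neurog3 at 1000 CPM or more. In cells with Neurod1 and Neurog3 under 1000 CPM it was present in 6 of 17, and with Neurod1 alone in 9 of 26. The steps differed in their mix of ages, and Rcor2 differed by age. At E13.25 it was present in 47 of 111 cells with neither gene, 18 of 20 at 50 to 1000 CPM of Neurog3 alone, 25 of 25 at 1000 CPM or more and 3 of 6 with Neurod1 alone. At E15.25 the counts were 18 of 176, 0 of 2, 9 of 11 and 6 of 20. Within each age Rcor2 was thus most frequent at 1000 CPM or more of Neurog3, and its share with Neurod1 alone was not below that with neither gene.

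In cells with neither gene Btbd17 was present in 11 of 287, Gadd45a in 77 and Cbfa2t3 in 82. With Neurog3 at 10 to 50 CPM alone they were present in 2, 9 and 11 of 29. In the 22 cells with 50 to 1000 CPM of Neurog3 Btbd17 was present in 5, Gadd45a in 9 and Cbfa2t3 in 4. In the 12 cells with at least 1000 CPM of Neurog3 and no Neurod1 the counts were 9, 10 and 10. In the 7 cells with at least 1000 CPM of Neurog3 and Neurod1 at 10 to 200 CPM, all 3 genes were present in 7 of 7. Their medians were 947 CPM for Btbd17, 1799.8 CPM for Gadd45a and 289 CPM for Cbfa2t3. The medians of Gadd45a covered a wide range. Without Neurod1 the median was 1.31 CPM at 50 to 1000 CPM of Neurog3 and 76.8 CPM above that. With at least 1000 CPM of Neurog3 and Neurod1 at 200 CPM or more it was 912 CPM. In cells with Neurod1 alone it was 15.33 CPM. Btbd17 was absent at the median (0 CPM) in the cells with Neurod1 alone, where 9 of 26 held it.

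Neurod2 was present over a narrow window. It was present in 0 of 287 cells with neither gene, 0 of 29 and 0 of 22 cells with Neurog3 below 1000 CPM alone, and 1 of 12 with at least 1000 CPM of Neurog3 and no Neurod1. With Neurog3 at 1000 CPM or more, it was present in 4 of 7 cells with Neurod1 at 10 to 200 CPM. With Neurod1 at 200 CPM or more in that range of Neurog3 it was present in 16 of 17 (94.1%, interval 71.3% to 99.9%), with a median of 85.2 CPM. It was present in 1 of 17 cells with both genes and less Neurog3, at 13.18 CPM. In the 26 cells with Neurod1 alone no Neurod2 read was found among 25457901 reads on genes, against 2546 reads among 39133300 in the 41 cells with both genes. Against a floor of 3 reads over the group (0.118 CPM), Neurod2 was at least 552-fold higher in the cells with both genes (65.1 CPM). This is a value over pooled plates: E13.25 plate 3 gave 1402 of the 2546 reads, and without it the bound was 311-fold. Tip 2, with 10 of the 26 cells with Neurod1 alone, had no Neurod2 read in either state. All 22 Neurod2 cells held Neurog3, and 21 of them held Neurod1.

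Fev and Runx1t1 were most frequent in cells with Neurod1. Fev was present in 0 of the 63 cells with Neurog3 alone, which allows a share of up to 4.76%, and in 0 of 7 cells with high Neurog3 and Neurod1 at 10 to 200 CPM. It was present in 8 of 17 cells with high Neurog3 and Neurod1 at 200 CPM or more. With both genes but less Neurog3 it was present in 11 of 17, and with Neurod1 alone in 15 of 26. Of its 35 cells, 34 held Neurod1 and 19 held Neurog3. Runx1t1 was present in 99 of 287 cells with neither gene, 11 of 29 with Neurog3 at 10 to 50 CPM alone, 0 of 22 with 50 to 1000 CPM of Neurog3, 2 of 12 and 0 of 7 at the next steps, and then in 13 of 17, 12 of 17 and 22 of 26.

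**Figure D3:**
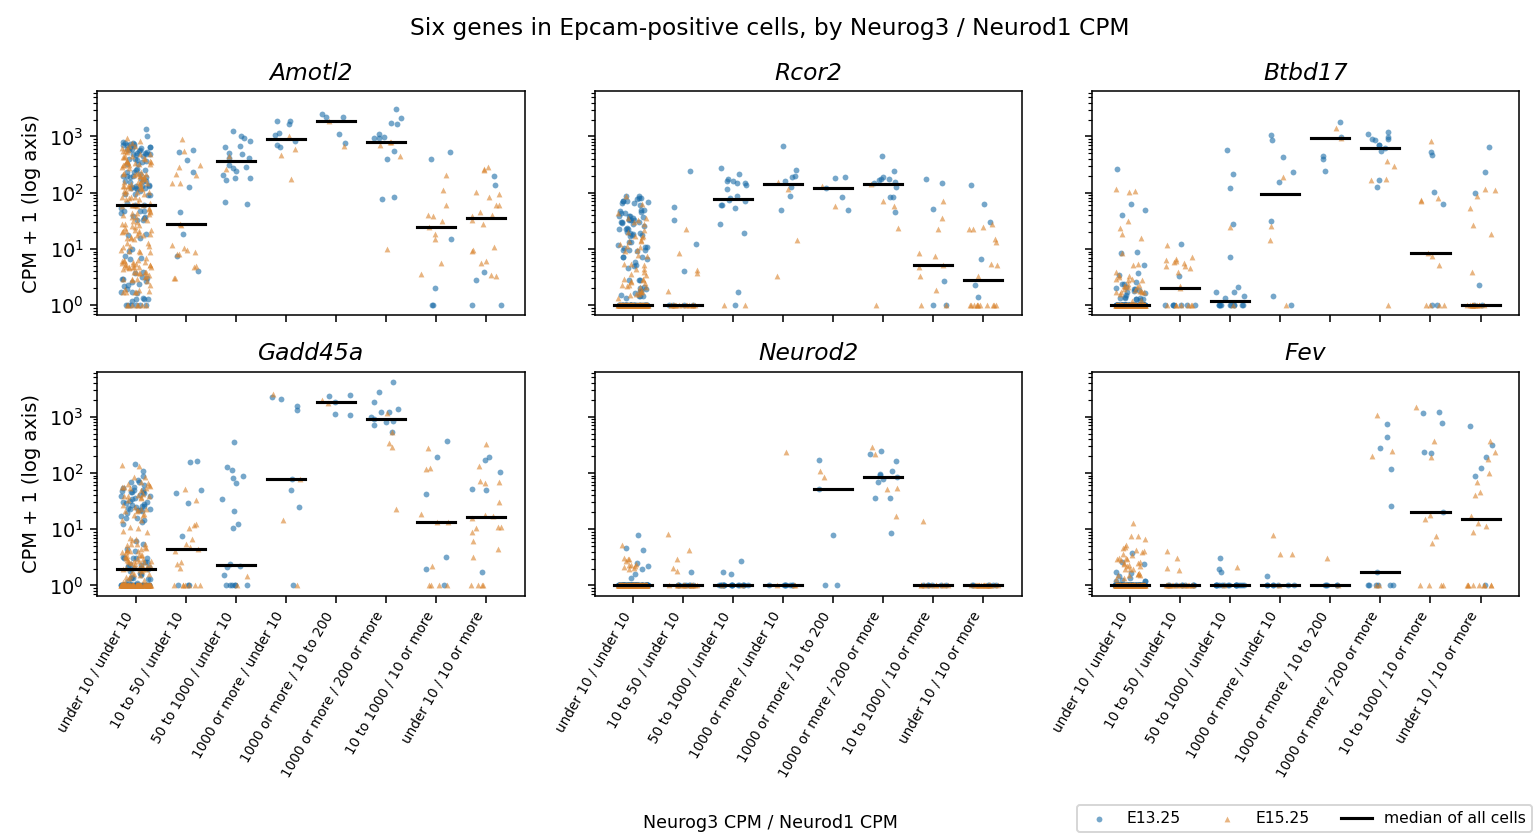
Amotl2, Rcor2, Btbd17, Gadd45a, Neurod2 and Fev in CPM + 1 (log axis) in each Epcam-positive cell, by the same 8 steps of Neurog3 / Neurod1 CPM (x axis), with E13.25 cells as circles, E15.25 cells as triangles and the median of all cells as a bar. The Gadd45a bar goes from 1.31 CPM at 50 to 1000 CPM of Neurog3 to 1799.8 CPM, and Neurod2 reaches 10 CPM in the steps with high Neurog3 and Neurod1, apart from 2 single cells elsewhere.

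The steps held cells of both ages but in unequal numbers, with 20 of 22 cells of E13.25 at 50 to 1000 CPM of Neurog3 and 20 of 26 cells of E15.25 with Neurod1 alone. Median reads ran from 432313 in the cells with 10 to 50 CPM of Neurog3 to 1240650 in those with 50 to 1000 CPM. Col3a1 at 100 CPM or more was found in 12 of the 26 cells with Neurod1 alone, all 12 of E15.25.

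For a test over plates, the Epcam-positive cells were put in 4 states by the 10 CPM level of Neurog3 and Neurod1, and counts were summed per plate and state with at least 3 cells. Neurog3 and Neurod1 define the states and their own values are no result. Cells with both genes differed from cells with Neurog3 alone most clearly in Fev and Runx1t1. In the cells with Neurog3 alone, Fev was at 0 CPM in E13.25 plates 1, 2 and 4, 0.313 in plate 3, 0.363 in tip 1, 1.81 in tip 2 and 0.428 in trunk 2. In the cells with both genes it was at 191 CPM in plate 1, 129.6 in plate 3, 358 in plate 4, 80.6 in tip 1, 572 in tip 2 and 131 in trunk 2. Fev was higher with both genes in 6 of 6 plates and the groups did not overlap (log2 change 9.54, SE 0.96, edgeR adjusted p = 3.98e-05). The share of all genes apart in this way between the states was not determined. Plate 2 had only 2 cells with both genes, both without Fev, and entered with its other states.

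Runx1t1 was at 5.09, 0.67, 0.862 and 0.537 CPM in the cells with Neurog3 alone of E13.25 plates 1 to 4, and at 78.5, 4.22 and 52.4 CPM in tip 1, tip 2 and trunk 2. With both genes it was at 353, 175 and 647 CPM in plates 1, 3 and 4, and at 337, 112 and 714 CPM in the E15.25 plates. The lowest plate with both genes lay above the highest with Neurog3 alone (log2 change 5.45, SE 0.94, edgeR adjusted p = 0.00393). As for Fev, the share of all genes apart in this way was not determined. Runx1t1 is also a gene of mesenchyme. In this comparison 0 of 8 mesenchyme markers passed the test, with a median log2 change of -0.96 against -0.09 over all genes. The part of mesenchyme RNA in the Runx1t1 values was not tested. Fev and Runx1t1 passed in all 14 alternative analyses, including the one without Col3a1-positive cells. Of the 8 members that do not define the states these 2 passed, both higher. Over all 17214 genes tested 3.14% passed, 1.85% higher and 1.29% lower.

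Neurod2 did not pass in that comparison (log2 change 7.82, SE 2.20, edgeR adjusted p = 0.0662). It was at 0, 0.067, 0.157, 0.134, 0, 53.7 and 0.856 CPM with Neurog3 alone in E13.25 plates 1 to 4, tip 1, tip 2 and trunk 2. With both genes it was at 14.4, 116 and 38.97 CPM in plates 1, 3 and 4 and at 67.1, 0 and 81.5 CPM in tip 1, tip 2 and trunk 2. Tip 2 alone went the other way, with 1 Neurod2 cell among its 3 cells with Neurog3 alone, and without that plate the log2 change was 9.08 and the adjusted p 0.00155 (edgeR). Neurod2 also passed by DESeq2 (adjusted p = 6.40e-07), at 50 CPM (edgeR, 0.0443) and without Col3a1-positive cells (edgeR, 0.00677). Counting the one without tip 2, it passed in 4 of 14 alternatives. In the others it did not pass, with edgeR adjusted p up to 0.340. Btbd17 (log2 change 2.75), Gadd45a (2.68), Cbfa2t3 (0.95), Rcor2 (0.64) and Amotl2 (0.10) did not pass with edgeR, and DESeq2 called Gadd45a (2.66, adjusted p = 0.0404). DESeq2 called more genes in all than the 541 of edgeR, with its count given in the last section.

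**Figure D4:**
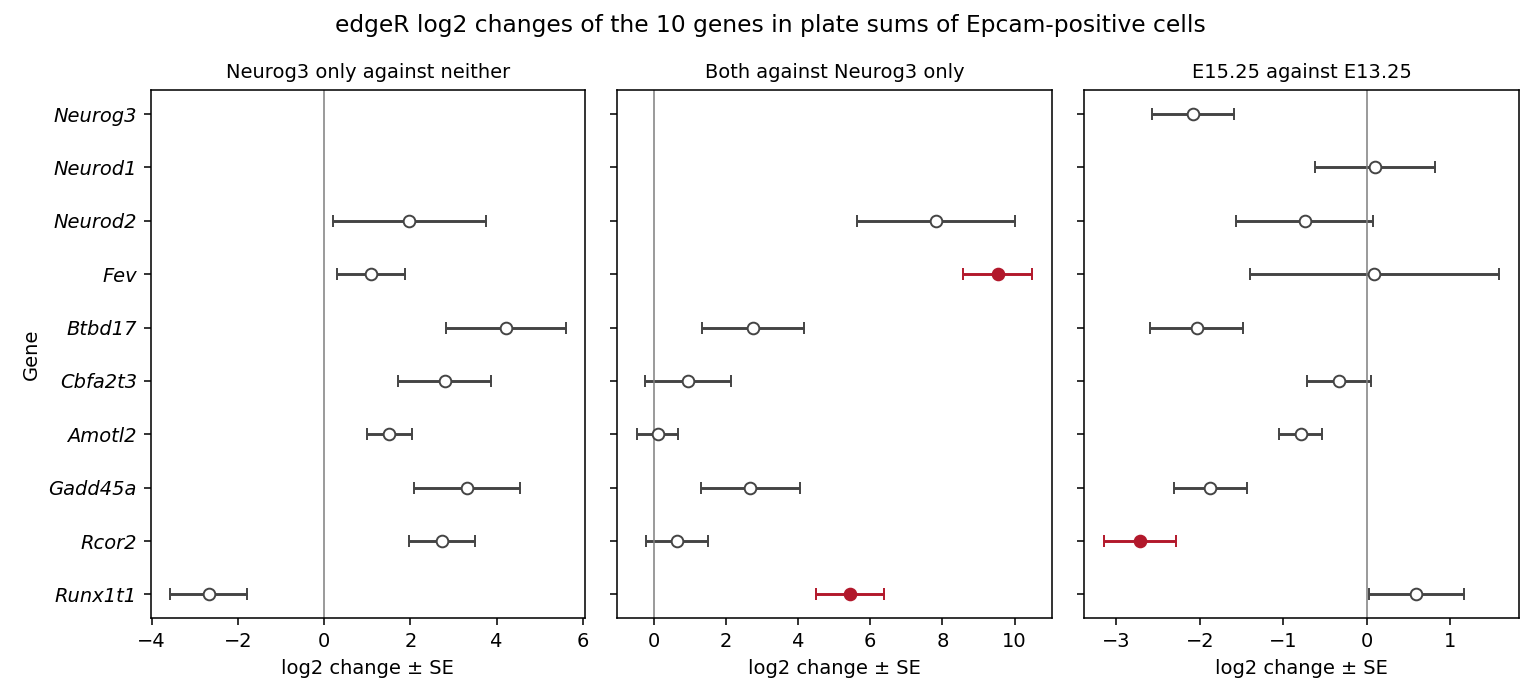
edgeR log2 changes with standard errors (x axis) of the genes (rows) in 3 comparisons of plate sums of Epcam-positive cells: Neurog3 alone against neither gene, both genes against Neurog3 alone, and E15.25 against E13.25. Filled red points passed an adjusted p of 0.05 (Fev and Runx1t1 with both genes, Rcor2 between ages); Neurog3 and Neurod1 are left out where they define the groups, and the x axes differ.

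Between cells with Neurog3 alone and cells with neither gene, 6 of 17214 genes passed (0.0349%, of which 0.0232% were higher and 0.0116% lower), and no member other than Neurog3 did with edgeR. A total of 1465 genes had an unadjusted p under 0.05, and DESeq2 called 894, among them Btbd17 (adjusted p = 0.00129), Rcor2 (0.00373), Gadd45a (0.0102), Runx1t1 (0.0109) and Cbfa2t3 (0.0306). DESeq2 ran without a filter, so 17214 is not its number of genes tested, and its share called is not given here. Of the 14 alternatives, Btbd17, Rcor2, Gadd45a and Cbfa2t3 passed in 1 each and Runx1t1 in 2. The edgeR log2 changes were 4.21 (SE 1.39) for Btbd17, 3.31 (1.24) for Gadd45a, 2.79 (1.07) for Cbfa2t3, 2.73 (0.77) for Rcor2, 1.51 (0.52) for Amotl2 and -2.67 (0.89) for Runx1t1, with edgeR adjusted p between 0.271 and 0.452. Neurod2 (1.97, SE 1.77) and Fev (1.09, SE 0.79) had few reads in both states and adjusted p of 0.895 and 0.831 (edgeR). Btbd17, Gadd45a, Cbfa2t3, Rcor2 and Amotl2 were each higher in 6 of 7 plates and Runx1t1 was lower in 6 of 7. In trunk 2, where 12 cells held Neurog3 alone, Gadd45a was at 1.82 CPM and Btbd17 at 3.64 CPM, and in E13.25 plate 1 they were at 1112 and 202 CPM. These are values of summed reads, in which single cells can weigh heavily. In plate 1 Gadd45a was present in 6 of 9 such cells and Btbd17 in 3, with medians of 23.4 and 0 CPM. In trunk 2 the medians were 0.73 and 2.82 CPM. With 50 CPM in place of 10 CPM as the level for Epcam, Neurog3 and Neurod1, 112 genes passed, among them Amotl2 (log2 change 1.87, edgeR adjusted p = 0.0494) and Runx1t1 (-2.96, 0.0318). Mesenchyme markers moved with this comparison, with a median log2 change of -3.65 over 8 markers and 0 of 8 past the test, and erythroid markers summed to up to 49834 CPM in 1 plate's cells with Neurog3 alone; their part in the Runx1t1 and other values was not tested.

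From cells with both genes to cells with Neurod1 alone, which only E13.25 plate 4, tip 2 and trunk 2 held in sufficient number, 1 of 17214 genes passed with edgeR (0.00581%), and it was Neurog3, which defines the states. A total of 1765 genes had an unadjusted p under 0.05 and DESeq2 called 1378. Fev was at 80.8 CPM on average with Neurod1 alone and at 354 CPM with both genes in these 3 plates, and lower in 3 of 3 (log2 change -1.83, SE 0.90, edgeR adjusted p = 0.505). Btbd17 averaged 25.2 against 294 CPM, Gadd45a 64.1 against 329 CPM and Amotl2 89.9 against 239 CPM, each lower in 2 of 3 plates. Neurod2 was at 0 CPM with Neurod1 alone in all 3 plates and at 38.97, 0 and 81.5 CPM with both genes (edgeR adjusted p = 0.249). It passed in 1 of 14 alternatives, by DESeq2 (adjusted p = 3.72e-39). With no read in 1 state its fold change has no bound, and tip 2 had no read in either state. The size of that p-value is therefore not read as a measure of support. Cbfa2t3 averaged 56.6 against 70.8 CPM, Rcor2 34.9 against 45.6 CPM and Runx1t1 239 against 491 CPM, also lower in 2 of 3 plates, with edgeR adjusted p from 0.695 to 0.781.

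Of 20 tested genes from the rest of the Neurog3 cascade, 2 were higher in cells with Neurog3 alone than in cells with neither gene: Insm1, a zinc-finger factor of neuroendocrine cells (log2 change 8.29, edgeR adjusted p = 0.00126), and Rfx6, a winged-helix factor of islet development (7.90, 0.0024). Their mean over plates was 186 CPM for Insm1 and 163 CPM for Rfx6 with Neurog3 alone, and 0.448 and 0.498 CPM with neither gene. With both genes, 3 of the 20 were higher than with Neurog3 alone, St18, Nhlh1 and Cck, none passed as lower, and the list's median log2 change was 2.22 against -0.09 over all genes. Nhlh1, also a basic helix-loop-helix factor, resembled Neurod2: it was present in 0% of cells with Neurog3 alone, 43.9% with both genes and 3.85% with Neurod1 alone. St18 was in 1.59%, 68.3% and 84.6% of these cells.

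Some endocrine transcription factors and granule genes were higher in cells with both genes. Of the endocrine factors, Pax6 and Isl1 were higher with both genes than with Neurog3 alone. Pax6 rose by 8.30 on the log2 scale (edgeR adjusted p = 1.53e-05). Of 22 hormone and granule genes 8 were higher and none lower, led by the granins Chgb (9.83) and Chga (9.34), Ins2 (9.33) and Pcsk1n (8.82). Chga averaged 4.39 CPM over plates with Neurog3 alone and 1836 CPM with both genes. Ins2 can share reads with its paralog Ins1 and its mean with both genes, 1025 CPM, had an SD of 2474 over 6 plates.

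In the same comparison more trunk and duct genes were lower than higher. Of 15 trunk and duct genes 8 were lower and 1 higher, with Onecut1, a trunk transcription factor, at 34.6 CPM with Neurog3 alone and 0.758 CPM with both genes. Of 17 Notch pathway genes 2 were lower, the effector Hes1 (427 to 46.99 CPM) and the ligand Jag1 (31.6 to 2.97 CPM), and none passed as higher; the other 15 did not pass. Of 12 corepressor partners 1 was lower: Rest, the repressor of neuronal genes that recruits the Rcor family, averaged 145 CPM with neither gene, 149 CPM with Neurog3 alone and 4.63 CPM with both (log2 change -4.68, SE 0.58, edgeR adjusted p = 0.000268). Of 20 G2/M genes 3 were lower (Cdk1, Mki67 and Birc5), none higher, and 15 had an unadjusted p under 0.05. No gene of the E-protein and Id list (7 tested) and none of the 6 tested cyclin-dependent kinase inhibitors passed in any of the 3 comparisons of states.

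Co-detection was counted against the number that the shares of each plate would give. Neurog3 and Neurod1 were found together in 41 cells against 16.8 (39.4% of Neurog3 cells, 61.2% of Neurod1 cells). Neurod1 and Neurod2 shared 21 cells against 3.46, and Neurod1 and Fev 34 against 6.55. Neurod2 and Btbd17 shared 21 cells against 4.18, which is 95.5% of Neurod2 cells and 31.3% of Btbd17 cells. Neurod2 and Fev overlapped in part: 7 of 22 Neurod2 cells held Fev and 7 of 35 Fev cells held Neurod2. Fev and Runx1t1 shared 31 cells against 13.97 (88.6% of Fev cells), while Fev and Amotl2 shared 19 against 25.9. Neurog3 shared 47 cells with Btbd17 (2.50 times the number from the shares), 19 with Fev (2.18), 63 with Rcor2 (1.55), 57 with Cbfa2t3 (1.52), 61 with Gadd45a (1.44), 87 with Amotl2 (1.13) and 38 with Runx1t1 (1.01). At 50 CPM, Neurog3 and Neurod1 shared 33 cells against 11.9, and all 18 Neurod2 cells held Neurog3.

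Over 417 Epcam-positive cells, Spearman's rho was taken within each plate and averaged over 7 plates for 12949 genes, as a description, since the cells of a plate share library preparation and depth. Rfx6 (0.56), Insm1 (0.55), the phospholipase gene Pla2g2f (0.53), Btbd17 (0.52), Vwa5b2 (0.52), Pax4 (0.52), Mfng (0.47) and Miat (0.46) were most like Neurog3. Neurod1 ranked 13, Cbfa2t3 30, Rcor2 34, Gadd45a 50, Neurod2 58, Amotl2 171, Fev 282 and Runx1t1 1861. Those most like Neurod1 were Baiap3 (0.63), Vwa5b2 (0.62), Atp2a3 (0.62), Fbxl16, 1700086L19Rik, Dbpht2, Miat and Rfx6 (0.58). Fev ranked 81 and Runx1t1 231 there, and Amotl2 1377. Rfx6, Vwa5b2 and Miat stood among the 8 for both genes.

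Between the ages, the share of Epcam-positive cells with each gene differed most for Rcor2, Gadd45a and Neurog3. Rcor2 was present in 43.6%, 75%, 55.6% and 60% of the cells of E13.25 plates 1 to 4, and in 9.21%, 19.5% and 17.2% of those of tip 1, tip 2 and trunk 2. Neurog3 was present in 38.5%, 40%, 28.6% and 34.5% against 18.4%, 11.7% and 24.1%. Gadd45a was present in 46.2%, 50%, 47.6% and 56.4% against 23.7%, 23.4% and 32.2%. For each of these 3 genes the lowest E13.25 plate lay above the highest E15.25 plate. How many of all genes had shares apart in this way was not determined. The means were 58.5% ± 12.98 against 15.31% ± 5.40 for Rcor2, 50.03% ± 4.51 against 26.4% ± 4.998 for Gadd45a and 35.4% ± 5.10 against 18.1% ± 6.23 for Neurog3 (SD, n = 4 and 3). The exact two-sided permutation p was 0.0571 for each (0.190 adjusted over the 10 genes), the smallest that 4 against 3 plates allow, so no share could pass 0.05.

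The other 7 genes overlapped between the ages in their shares. Neurod1 was at 15.5% ± 3.81 against 15.6% ± 8.93 and Fev at 7.67% ± 5.15 against 7.78% ± 5.64 (SD, n = 4 and 3). Neurod2 was at 7.53% ± 2.59 against 3.66% ± 2.24, Btbd17 at 21.5% ± 2.62 against 11.2% ± 8.58, and Amotl2 at 78.1% ± 3.42 against 67.9% ± 9.58. Cbfa2t3 was at 32.3% ± 5.37 against 39.5% ± 12.9 and Runx1t1 at 29.2% ± 6.73 against 43.4% ± 7.55. The exact permutation p for these 7 genes ran from 0.114 to 0.914. Without the Col3a1-positive cells Runx1t1 was at 21.3% against 26.7%. After thinning each cell to 100000 reads, with 1 read as the level, Neurog3 was at 36.6% against 28.9% and overlapped between ages (exact permutation p = 0.457). Runx1t1 was then at 32.9% against 57.2% without overlap (exact permutation p = 0.0571). Cells with at least 1000 CPM of Neurog3 made up 20.5%, 15%, 12.7% and 10.9% of the E13.25 plates 1 to 4 and 5.26%, 2.60% and 5.75% of tip 1, tip 2 and trunk 2.

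**Figure D5:**
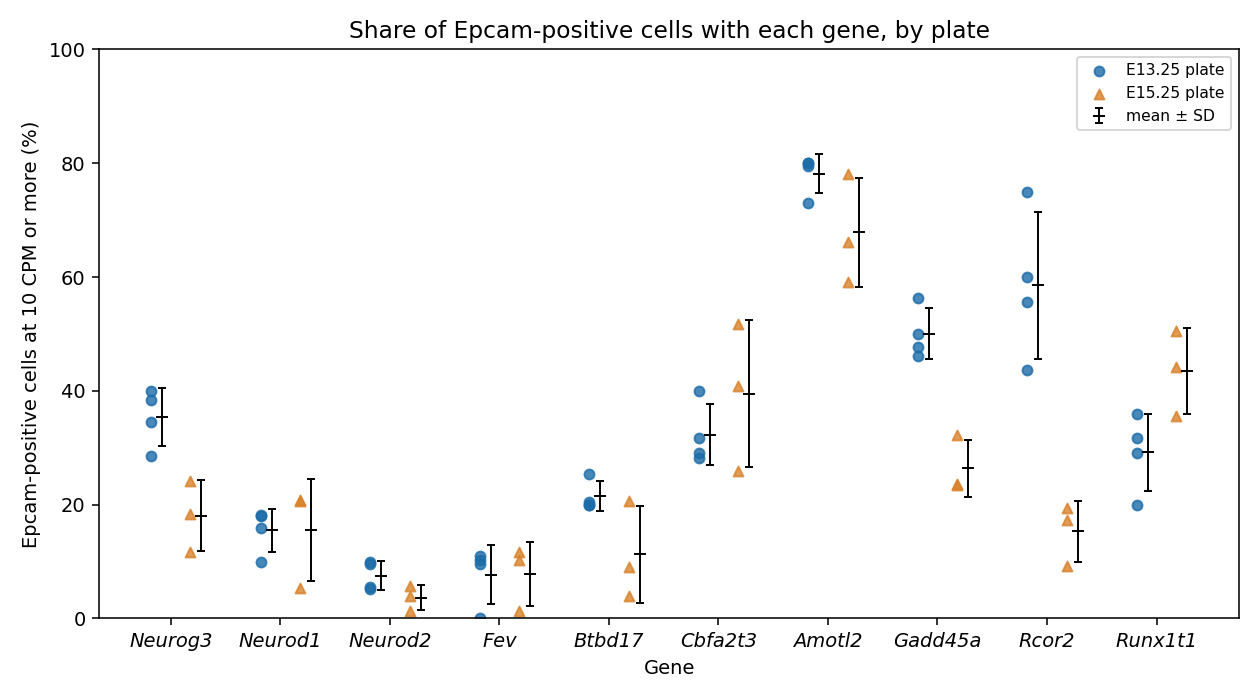
Percent of Epcam-positive cells (y axis) with each gene (x axis) at 10 CPM or more in the 4 E13.25 plates (circles) and 3 E15.25 plates (triangles), with mean and SD beside the points. Rcor2, Gadd45a and Neurog3 do not overlap between ages, and Neurod1 and Fev have nearly equal means.

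In the summed counts of Epcam-positive cells, Rcor2 was the only member past the edgeR test between ages. It was at 36.4, 69.9, 50.7 and 55.4 CPM in E13.25 plates 1 to 4 and at 3.60, 10.2 and 5.50 CPM in tip 1, tip 2 and trunk 2 (log2 change -2.71, SE 0.43, edgeR adjusted p = 0.0318), and 1 of 10 members thus passed. Over all 19331 genes tested 1.35% passed, 0.931% higher and 0.419% lower. Every E13.25 plate lay above every E15.25 plate. The call was close to the threshold: leaving out any plate other than E13.25 plate 1 ended it, with adjusted p from 0.0546 to 0.126 and log2 changes from -3.20 to -2.45. With a term for the unaligned share, which sets plate 4 alone against E15.25, the log2 change was -2.79 with an adjusted p of 0.316, and without Col3a1-positive cells it was -2.71 with 0.0621 (edgeR). In a bulk sum, fewer cells with a gene and less RNA per cell cannot be told apart; per cell with Rcor2, the median was 63.3 CPM at E13.25 (100 cells) and 23.5 CPM at E15.25 (37 cells).

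Neurog3 was at 719, 1201, 739.8 and 289 CPM in the E13.25 plates and at 185, 82.2 and 138 CPM at E15.25 (log2 change -2.08, SE 0.49, edgeR adjusted p = 0.0899), without overlap. Under the term for the unaligned share its log2 change was -0.76. Gadd45a was at 287, 124, 203 and 87.5 CPM against 48.9, 27.7 and 34.3 CPM (-1.87, SE 0.43, adjusted p = 0.0858, edgeR), and -0.90 under that term. Btbd17 was at 60.9, 170.0, 102 and 60.5 CPM against 20.9, 7.42 and 28.2 CPM (-2.04, SE 0.56, adjusted p = 0.126, edgeR). Amotl2 was at 344, 433, 361 and 282 CPM against 135, 118 and 232 CPM (-0.79, SE 0.25, adjusted p = 0.176, edgeR). These 4 genes were thus separated by age in their plate values, and did not pass over all genes with edgeR. The share of all genes separated in the same way was not determined, so the separation is not read as particular to them. DESeq2 called Gadd45a (adjusted p = 0.00153), Neurog3 (0.00186) and Btbd17 (0.00715), and with equal weight of cells edgeR called Amotl2 (0.0351) and Gadd45a (0.0371). Both alternatives called more genes in all than the 261 of the main test, with their counts given in the last section. Neurod1, Neurod2, Fev, Cbfa2t3 and Runx1t1 overlapped, with log2 changes from -0.75 to 0.59. Of 21 tested genes of the rest of the cascade 5 were lower at E15.25, among them Igfbpl1 (-3.67), Sox11 (-2.52), Nkx2-2 (-2.23) and Mfng (-1.85), and none higher.

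Within cells that held Neurog3, no member passed between ages with edgeR, where 33 of 14696 genes did (0.225%, of which 0.197% were higher and 0.0272% lower), DESeq2 called 998 and 1519 had an unadjusted p under 0.05. Rcor2 had a log2 change of -2.15 (SE 0.44, edgeR adjusted p = 0.117) and Amotl2 of -1.23 (0.390), and DESeq2 called Rcor2 (adjusted p = 0.00011). The other 8 members had log2 changes from -1.17 (Btbd17) to 1.71 (Fev), with edgeR adjusted p from 0.591 to 0.965. Among cells with 50 CPM or more of Neurog3 and no Neurod1, Rcor2 was present in 26 of 28 at E13.25 and 3 of 6 at E15.25, and Cbfa2t3 in 9 of 28 and 5 of 6. These cells differed in Neurog3 itself, with a median of 325 CPM and 8 of 28 at 1000 CPM or more at E13.25, against 1436 CPM and 4 of 6 at E15.25. Mesenchyme markers were higher at E15.25 in this comparison in 4 of 8 and in 2 of 9 in all Epcam-positive cells, and none lower, with Col3a1 at a log2 change of 7.88 among the Neurog3 cells; their part in the differences between ages was not tested.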

How the data were processed

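Single cells of E13.25 (4 plates) and E15.25 (3 plates) mouse pancreas were analysed from the deposited tables, which hold raw counts of reads per gene. The submitters' processing notes name GSNAP, HTSeq 0.5.3p3 and the build mm10. Which annotation was used, whether counting used strand and how reads with more than 1 position were treated is not given in the sources used here. The median cell had 55.5% of its reads outside genes (unaligned, ambiguous and similar classes, spike-ins included), and these stayed out of totals. A cell was kept if it had 100000 or more reads on genes, 1500 or more genes and no more than 20% mitochondrial reads, and no doublet caller was run, since wells received single sorted cells. Symbols came from the reference annotation (45143 of 46078 genes). Counts were summed per plate, or per plate and state with at least 3 cells, and tested with edgeR 4.0.16 in R 4.3.3 (TMM, filterByExpr, quasi-likelihood F test, plate as block between states, Benjamini-Hochberg adjusted p under 0.05 over all genes). The fits were tested on simulated data. Shares were compared by exact two-sided permutation over plates. Between states the plate is the pair, since states of 1 plate share its libraries; between ages pancreas and bud numbers name different stages and pair nothing. Alternatives were DESeq2 1.42.0, no filter, 50 CPM, equal weight of cells, leaving out the 5% of cells with the most genes, each plate in turn, the plate block and a term for plates with under 40% of reads unaligned; leaving out Col3a1-positive cells was added after seeing the data. The members named are all 10, apart from those that define the states compared; likeness names the 8 nearest genes present in at least 5% of Epcam-positive cells, and lists name at most the 4 largest changes past the threshold, other genes only where a result turns on them. The members and lists were chosen with earlier results of these data known. Some results of the list of endocrine factors are not reported here.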

Additional observations from a re-analysis of the deposited data

Results flagged for a closer look

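The share of Epcam-positive cells and the summed CPM of each gene were searched for a single plate far from the others among the 4 E13.25 plates. Of 20 such sets of values 3 held one, and chance gives about 1 in 20. Fev was present in 0 of the 20 Epcam-positive cells of E13.25 plate 2 (0%), against 9.52% to 10.9% in the other plates. Btbd17 was present in 25.4% of the cells of E13.25 plate 3, against 20% to 20.5%. Amotl2 was present in 73.02% of the cells of E13.25 plate 3, against 79.5% to 80%. Outside the Epcam-positive cells, 1 mesenchyme cell of E13.25 plate 1 held Neurod1 at 82.7 CPM with Epcam at 4.35 CPM and Col3a1 at 9501 CPM, and no Neurog3 read. No other cell with Epcam under 10 CPM reached 10 CPM of Neurod1.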

How the results depend on the processing

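Fev and Runx1t1, higher in cells with both genes than with Neurog3 alone, passed in 14 of 14 alternatives, with log2 changes from 8.99 to 10.02 for Fev and 4.18 to 7.48 for Runx1t1. Rcor2 between ages passed in 6 of 14. Over all member changes and alternatives 637 kept their sign and their side of the threshold, 20 gained and 13 lost the call. Another 30 changed sign without passing in either the main or the alternative analysis. Of the differences in shares 109 stayed within the spread between plates under the alternatives and 11 moved beyond it. The number of genes past the threshold moved more. Between ages in Epcam-positive cells it was 261, with 2495 by DESeq2 (run without a filter), 591 with equal weight of cells, 1 with the term for the unaligned share and 41 to 186 without each plate in turn. Between ages in Neurog3 cells it was 33, with 998 by DESeq2, 74 without a filter, 0 at 50 CPM, 21 without Col3a1-positive cells, 0 with the term for the unaligned share and 9 to 43 without each plate. For Neurog3 alone against neither it was 6, with 894 by DESeq2, 3 without a filter, 112 at 50 CPM, 3 with equal weight, 3 without the cells with the most genes, 2 without Col3a1-positive cells and 2 to 5 without each plate. For both against Neurog3 alone it was 541, with 3222 by DESeq2, 287 at 50 CPM and 228 to 608 without each plate. For Neurod1 alone against both it was 1, with 1378 by DESeq2, 3 at 50 CPM, 0 without Col3a1-positive cells and 0 to 2 without each plate. Without the replicate block for plates the 3 comparisons of states gave 13, 801 and 2 genes, while the ages could not be paired, since their plate numbers name different stages. The causes of these differences were not tested. Depth limits the low end: 10 CPM is 1 read in a cell with 100000 reads.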
